A study of Mus musculus with 6 samples.

Results

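The collagen genes of mouse are described here in mammary epithelial cells (MECs) of wild-type and IL-21isoTg mice. The members were the protein-coding genes of the deposited count table whose symbol is Col, a number, the letter a and a number. This rule took 44 of the 55487 rows: 11 fibrillar collagens, the 6 chains of type IV collagen of basement membranes, and 27 others. Col4a3bp shares the beginning of such a symbol and is not a collagen gene, and it was not taken.

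RNA was sequenced from MECs of 10-week-old female BALB/c mice, 3 wild-type (WT) and 3 IL-21isoTg, with 1 library per mouse. IL-21isoTg mice express an isoform of the cytokine interleukin-21 in T cells, and no treatment is named for either group. MECs were what remained of the digested mammary gland, which had been treated with collagenase, after magnetic removal of cells carrying CD45 (leukocytes), CD31 (endothelium) or CD140a (the product of Pdgfra, on fibroblasts). The comparison asks whether collagen mRNAs of this depleted preparation differed between the genotypes. Per the study's methods, the mice used for mammary tissue were virgin, and their estrous stages were randomized.

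Collagens are extracellular proteins made of 3 chains wound into a triple helix, in which glycine recurs as the leading residue of each Gly-X-Y repeat. Fibrillar collagens, chiefly types I, III and V, form the cables of connective tissue and are made mainly by fibroblasts. Type IV collagen forms the sheet-like network of the basement membrane, to which mammary basal and luminal cells attach, and is made by epithelial, endothelial and stromal cells. The others include type VI collagen, which forms beaded filaments between basement membrane and stroma, and the fibril-associated collagens (FACITs), such as types IX, XII, XIV and XVI, which coat the surface of fibrils.

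The classes differ in the gene itself, and a coding stretch of the members that carried most of the results is given to show this. The sequences are from GENCODE M21 on the mouse build GRCm38, and capitals mark glycine codons, which begin with GG. Many exons of the fibrillar genes have 54 bases and hold 6 Gly-X-Y repeats. Such exons are shown for the chains of types I, III and V, at chr11:94939904-94939957 on the plus strand for Col1a1, chr6:4515481-4515534 on the plus strand for Col1a2, chr1:45325360-45325413 on the plus strand for Col3a1, and chr1:45422386-45422439 on the minus strand for Col5a2.
Col1a1: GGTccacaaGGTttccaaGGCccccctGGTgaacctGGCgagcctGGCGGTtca
Col1a2: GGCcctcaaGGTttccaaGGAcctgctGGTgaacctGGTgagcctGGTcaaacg
Col3a1: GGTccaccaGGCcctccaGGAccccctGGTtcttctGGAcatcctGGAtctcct
Col5a2: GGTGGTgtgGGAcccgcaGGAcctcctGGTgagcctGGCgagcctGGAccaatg
The 63 bases shown for type IV collagen hold a break in the repeat, at chr8:11220288-11220350 on the minus strand for Col4a1 and at chr8:11429405-11429467 on the plus strand for Col4a2.
Col4a1: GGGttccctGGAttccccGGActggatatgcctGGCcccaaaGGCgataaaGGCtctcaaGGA
Col4a2: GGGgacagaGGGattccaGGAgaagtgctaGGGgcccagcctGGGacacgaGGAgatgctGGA
Whole exons of 54 bases are shown for Col6a1, at chr10:76719623-76719676 on the minus strand, and for Col9a1, at chr1:24210373-24210426 on the plus strand, since these chains lie outside the fibrillar class and carried the results of the others.
Col6a1: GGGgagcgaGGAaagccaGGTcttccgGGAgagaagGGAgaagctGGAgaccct
Col9a1: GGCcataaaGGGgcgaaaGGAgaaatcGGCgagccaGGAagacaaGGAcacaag

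In the coding sequence of the 11 fibrillar genes, the longest unbroken run of Gly-X-Y repeats had a median of 338 repeats (range 216 to 344). It was 338 repeats in Col1a1, 339 in Col1a2 and 344 in Col3a1. In the 6 type IV genes the median was 43.5 repeats (39 to 66), with 40 in Col4a1 and 66 in Col4a2, and in the 27 others it was 45.0 repeats (23 to 113). The 3 chains of type IX collagen each had a longest run of 113 repeats, and Col6a1 and Col6a2 each had 87. Of the coding exons, 305 of 649 (47.0%) had 54 bases in the fibrillar genes, 12 of 296 (4.05%) in the type IV genes and 152 of 1060 (14.3%) in the others, against 0.675% over all 21901 protein-coding genes. The longest runs of the fibrillar genes were thus longer than those of both other classes, and those of type IV and of the others were of like median length.

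The total count per library was between 15902886 and 25719244, and levels are given as TMM-normalized CPM, in which counts are scaled to a common library size by the trimmed mean of M-values. Il21 had 0, 0 and 37 counts in WT mice and 795, 216 and 131 in IL-21isoTg mice, and reads of the transgene and of the endogenous gene were not told apart. Genes of the salivary gland held 6.53 to 22.6% of the counts in WT libraries and 22.2%, 4.85% and 40.4% in the libraries of IL-21isoTg mice 1 to 3. The summed level of 10 luminal epithelial markers was 6535 to 7544 CPM in WT and 5755 to 9400 CPM in IL-21isoTg mice, with Epcam at 778 to 1144 and 674 to 1054 CPM. Markers of the depleted cells were present. Pdgfra, which encodes CD140a, stood at 15.8, 40.2 and 48.5 CPM in WT and 60.4, 50.5 and 43.7 CPM in IL-21isoTg mice, and Pecam1, which encodes CD31, stood at 22.6, 45.7 and 20.6 CPM against 86.2, 70.2 and 35.2 CPM. Ptprc, which encodes CD45, was at 2.16 to 9.40 CPM over all 6 libraries.

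Collagen genes held 0.385%, 0.580% and 0.483% of all counts in WT mice and 0.669%, 0.796% and 0.426% in IL-21isoTg mice. Of the 44 members, 41 had enough counts to be tested, and 37 had at least 10 counts in every library. Col22a1 had 0 counts in every library, which allows up to 0.112 to 0.280 CPM depending on the library, Col19a1 had 2 to 9 counts, and Col10a1 had 1, 12 and 0 counts in WT mice and 0 in each IL-21isoTg mouse. These limits cover counting error only. Per kb of exon, the highest mean levels over the 6 mice were 132 CPM per kb for Col1a1, 119 for Col3a1, 66.3 for Col1a2, 57.5 for Col4a1, 42.9 for Col4a2 and 40.4 for Col6a1. Chains of types I, III and IV were therefore the leading collagen mRNAs of the preparation, followed by Col6a1. Next came Col16a1 and Col14a1, at 29.9 and 21.5 CPM per kb, above Col6a2 and Col6a3, at 19.4 and 15.7 CPM per kb. Col1a1, Col1a2 and Col3a1 together held 35.9 to 57.1% of the collagen counts of a library.

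After Benjamini-Hochberg adjustment over 17165 genes in edgeR's quasi-likelihood test, no collagen gene passed an adjusted p of 0.05 (0 of 41, and 0.0% of all genes in either direction), and the lowest adjusted p among the members was 0.593, for Col9a1. At an unadjusted p under 0.05, IL-21isoTg mice had the higher level in 13 collagen genes and the lower in 4, where 3.19% and 2.63% of all genes tested were. In 12 members every IL-21isoTg mouse lay above every WT mouse, against 5.54% of all genes tested, and in 1 member every IL-21isoTg mouse lay below, against 6.54%. The 12 were Col1a1, Col1a2, Col3a1, Col5a1, Col5a2, Col5a3, Col4a2, Col6a1, Col6a2, Col6a3, Col9a1 and Col12a1, and the 1 was Col11a1. The same 12 and 1 were found with DESeq2's size factors, with upper-quartile scaling and with salivary gland genes removed. With plain CPM of the total count, Col5a3 and Col9a1 alone remained of the 12 and none lower, while 1.13% of all genes were higher and 9.19% lower and the median gene shifted by -0.25 on the log2 scale, against -0.02 with TMM. Leaving out each mouse in turn gave 14, 16 and 14 members higher without WT mice 1 to 3, against 11.6%, 10.8% and 8.26% of all genes, and 12, 15 and 14 without IL-21isoTg mice 1 to 3, against 8.52%, 12.6% and 11.5%. It gave 5, 1 and 1 members lower without WT mice 1 to 3, against 14.4%, 11.3% and 9.52%, and 2, 2 and 1 without IL-21isoTg mice 1 to 3, against 9.39%, 15.1% and 10.5%. Under plain CPM the library of IL-21isoTg mouse 3, with 40.4% of its counts in salivary gland genes, is compared on a total that includes them.

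The DESeq2 Wald test, run as an alternative, called 5 collagen genes higher, where 0.42% of 17137 genes were, and 0 lower, where 0.0467% were. These were Col9a1 (log2 fold change 2.32, DESeq2 adjusted p 0.000416), Col3a1 (0.94, 0.0194), Col6a2 (0.68, 0.0235), Col1a1 (1.04, 0.0364) and Col5a2 (0.59, 0.0493). Without WT mice 1 to 3 in turn, DESeq2 called 7, 6 and 1 members higher, against 0.677%, 0.555% and 0.303% of all genes. Without IL-21isoTg mice 1 to 3 it called 0, 3 and 2 higher, against 0.142%, 0.921% and 0.663%. Col9a1 was the member called without WT mouse 3, and Col6a2 and Col9a1 were those called without IL-21isoTg mouse 3, the library richest in salivary gland genes. Without WT mouse 1 DESeq2 called 1 member lower (Col8a1), against 0.294% of all genes. Without IL-21isoTg mouse 2 it called 1 (Col11a1), against 0.37%. It called 0 lower without WT mouse 2 or 3, against 0.175% and 0.0504% of all genes. The number was also 0 without IL-21isoTg mouse 1 or 3, against 0.0113% and 0.0592%. With 3 mice in each group, the p-values set the group difference against the spread between these mice. Both tests estimate that spread partly from the other genes, and the calls differed between both tests.

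The fibrillar collagens were the class with the largest difference, by a median log2 fold change of 0.58 over 11 genes, against -0.02 over all genes tested. Of the 11, 7 had a higher and 4 a lower fitted level in IL-21isoTg mice, against 47.9% and 52.1% of all genes tested. Col1a1 and Col1a2 encode the chains of type I collagen, the main protein of fibrous tissue. Col1a1 (ENSMUSG00000001506, chr11:94936224-94953042) stood at 392, 678 and 647 CPM in WT mice and 1396, 1074 and 1020 CPM in IL-21isoTg mice. All IL-21isoTg mice were above all WT mice, and WT mouse 1 was the lowest. The log2 fold change was 1.02 (SE 0.27; adjusted p 0.795 with edgeR's quasi-likelihood test). Col1a2 followed Col1a1, with 406, 724 and 638 CPM against 1182, 1014 and 982 CPM, a log2 fold change of 0.85 (SE 0.26) and an edgeR adjusted p of 0.809.

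Col3a1 encodes type III collagen, which shares fibrils with type I in soft tissue. It stood at 590, 975 and 853 CPM in WT and 1508, 1497 and 1579 CPM in IL-21isoTg mice, so that the WT mice were spread (806 ± 197 CPM, SD, n = 3) and the IL-21isoTg mice lay close together (1528 ± 44.6 CPM, SD, n = 3). The log2 difference was 0.92 (SE 0.25; edgeR adjusted p 0.809). Type V collagen is a minor component that sets the diameter of type I fibrils. For its chain Col5a1 the values were 56.6, 93.2 and 82.0 CPM in WT and 132, 148 and 129 CPM in IL-21isoTg mice, a log2 fold change of 0.82 (SE 0.21; edgeR adjusted p 0.757). Col5a2 lies beside Col3a1 on chromosome 1 and on the other strand. It had the smallest SE of the class, at 79.0, 85.8 and 79.4 CPM against 126, 117 and 121 CPM, with a log2 fold change of 0.58 (SE 0.14; edgeR adjusted p 0.677). For these 5 genes the groups did not overlap, with WT mouse 1 the lowest in each, and their log2 fold changes stayed between 0.55 and 1.16 when each mouse was left out in turn.

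The remaining fibrillar genes are outside the naming rule and were chosen after their values were seen. Col5a3, the third type V chain, was at 28.5, 24.1 and 20.0 CPM in WT and 31.9, 33.2 and 60.2 CPM in IL-21isoTg mice, so that the groups did not overlap and IL-21isoTg mouse 3 was the highest. Col11a1, a type XI chain that resembles type V and is best known from cartilage, went the other way, with 24.0, 33.3 and 24.6 CPM against 10.4, 22.5 and 7.93 CPM (log2 fold change -0.99, SE 0.38, edgeR adjusted p 0.809). It is the only collagen gene in which every IL-21isoTg mouse lay below every WT mouse. Col27a1 was at 5.50 to 9.56 CPM and 9.42 to 13.1 CPM, and Col24a1 had 14 to 29 counts in WT and 25, 6 and 0 counts in IL-21isoTg mice. In both the groups overlapped.

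**Figure D1:**
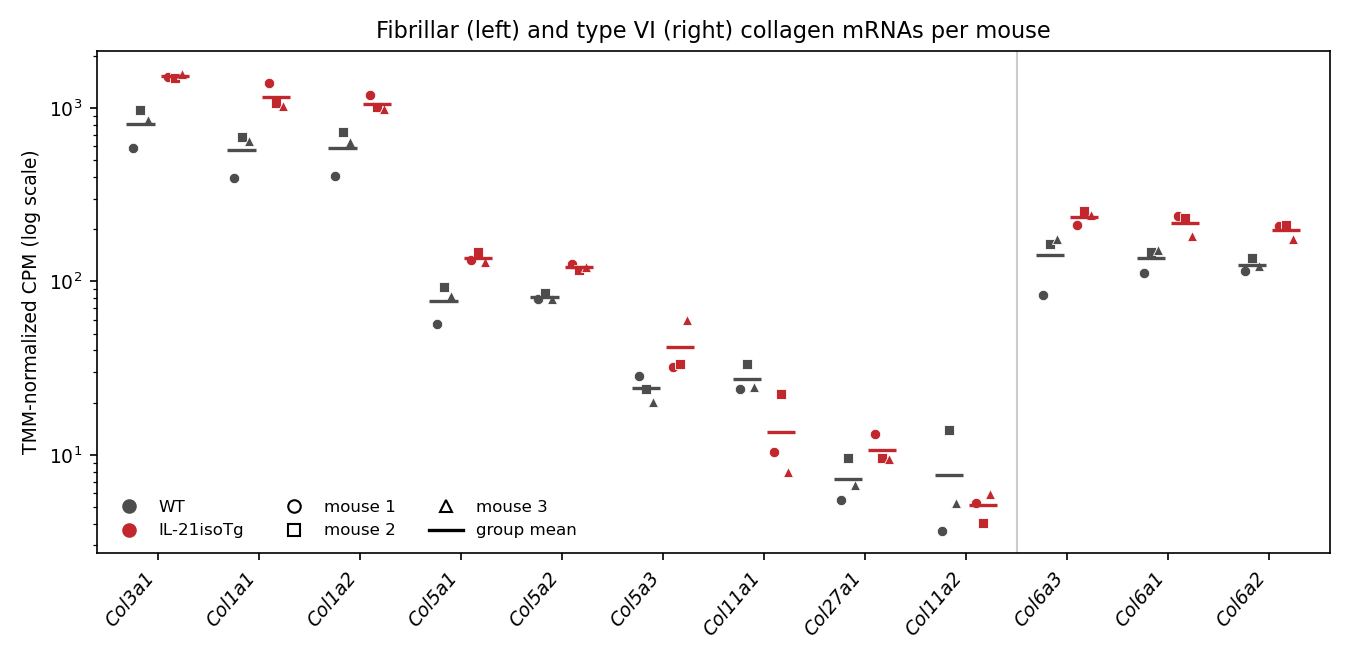
TMM-normalized CPM on a log axis of the fibrillar collagen genes with a mean above 5 CPM except Col2a1 (left) and of 3 type VI chains (right), with 1 point per mouse, a shape per mouse number within its group, and a bar at the arithmetic group mean of 3 mice. Col1a1 lay at 392 to 678 CPM in WT and 1020 to 1396 CPM in IL-21isoTg mice, while Col11a1 was lower in each IL-21isoTg mouse.

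Type VI collagen had the other set of chains with like differences. Its beaded filaments lie around cells and link basement membranes to the stroma, and a filament is built of the chains of Col6a1, Col6a2 and Col6a3. Col6a1 and Col6a2 are neighbours on chromosome 10. Col6a1 was at 112, 147 and 152 CPM in WT and 237, 231 and 183 CPM in IL-21isoTg mice (log2 fold change 0.66, SE 0.19, edgeR adjusted p 0.809). Col6a2 was at 115, 136 and 123 CPM against 209, 210 and 176 CPM (0.67, SE 0.16, edgeR adjusted p 0.677). Col6a3 was at 83.2, 165 and 177 CPM against 210, 254 and 240 CPM (0.73, SE 0.28, edgeR adjusted p 0.809). The groups did not overlap in any of the 3 chains. The other 3 type VI genes, Col6a4, Col6a5 and Col6a6, named after their values were seen, were at 1.44 to 27.0 CPM with overlapping groups.

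For type IV collagen, all 6 chains had a log2 fold change above 0, where 47.9% of all genes tested did, with a median of 0.28. The chains of Col4a1 and Col4a2 form the network found in nearly every basement membrane. The genes lie head to head on chromosome 8, where their exons share 22 bases on opposite strands. Col4a1 was at 478, 342 and 334 CPM in WT mice and 470, 520 and 432 CPM in IL-21isoTg mice, and WT mouse 1 lay within the range of the IL-21isoTg mice (log2 fold change 0.30, SE 0.21, edgeR adjusted p 0.827). Col4a2 was at 277, 225 and 226 CPM against 342, 352 and 283 CPM, the only type IV chain whose groups did not overlap (0.43, SE 0.18, edgeR adjusted p 0.809).

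Col4a5, whose chain joins other type IV chains in more restricted basement membranes, was at 72.8, 90.7 and 91.5 CPM in WT and 96.9, 133 and 73.5 CPM in IL-21isoTg mice (0.25, SE 0.23, edgeR adjusted p 0.856). The groups overlapped, since IL-21isoTg mouse 3 was as low as WT mouse 1. Col4a3 and Col4a4, the chains of the kidney filter, were scarce, at 0.947 to 5.04 and 2.65 to 4.42 CPM over the 6 mice, and their log2 fold changes of 0.81 (SE 0.64, edgeR adjusted p 0.839) and 0.21 (SE 0.33, edgeR adjusted p 0.921) were called by neither edgeR nor DESeq2. Exons of Col4a3 share 563 bases with C430014B12Rik on the opposite strand, which had 24 to 39 counts. Col4a6, named after its values were seen, was at 1.76 to 4.86 CPM, and its log2 fold change was 0.03 (SE 0.43). It became -0.28 without WT mouse 1 and -0.15 without IL-21isoTg mouse 1, so that not all 6 chains stayed above 0 there.

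**Figure D2:**
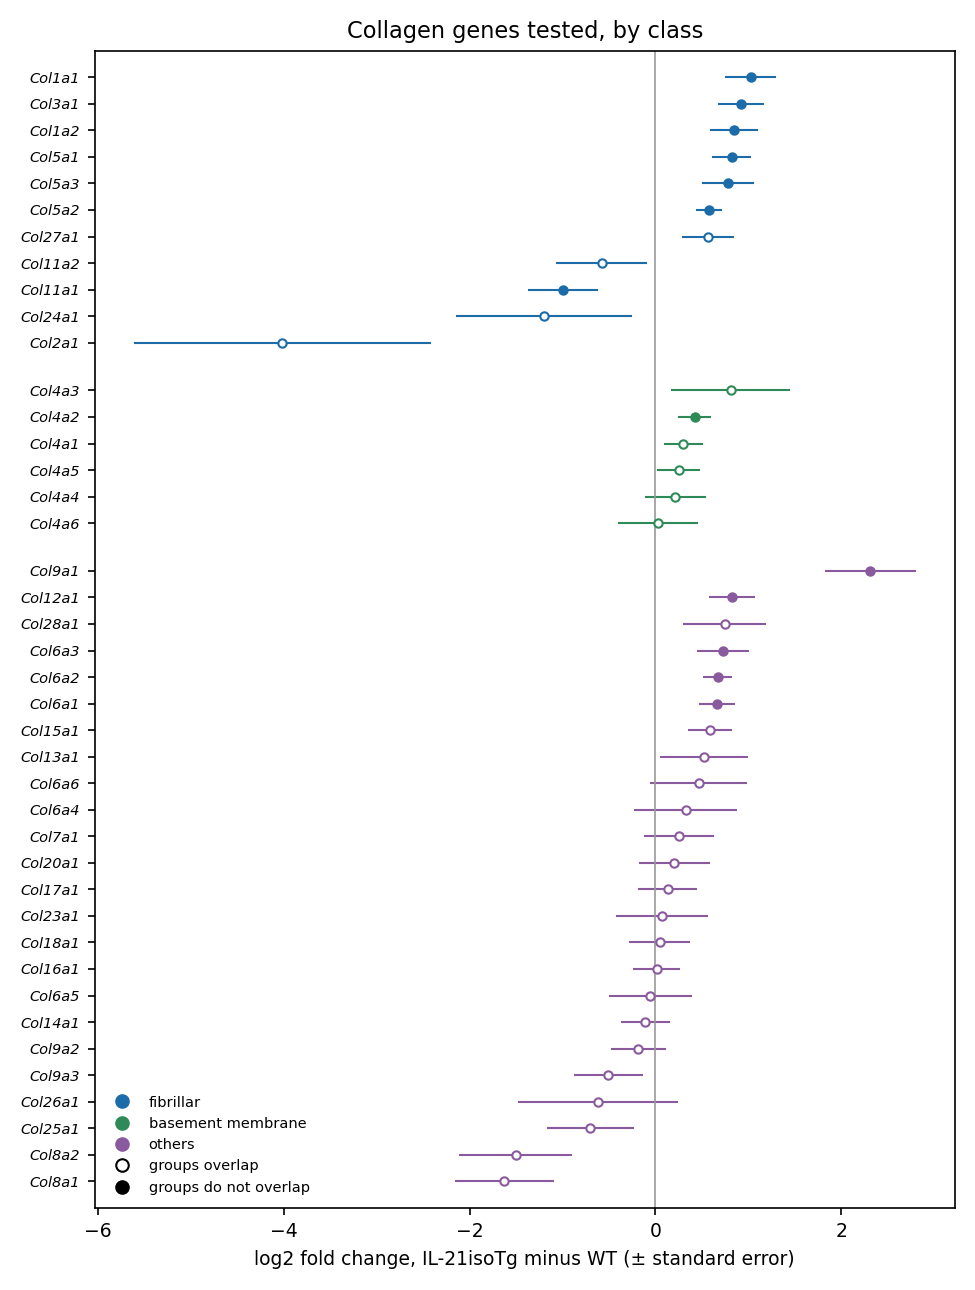
Log2 fold change (IL-21isoTg minus WT, edgeR's quasi-likelihood fit, bars ± SE) of the 41 collagen genes tested, by class, with filled points where the 3 IL-21isoTg and 3 WT mice did not overlap. Filled points lie to the right of 0 for 12 genes, with Col9a1 the farthest at 2.31 (12 of 41 tested, against 5.54% of all genes), and to the left for Col11a1 alone.

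Col9a1 had the highest log2 fold change of the 41 collagen genes tested. It encodes a chain of type IX collagen, a FACIT that coats the type II fibrils of cartilage together with the chains of Col9a2 and Col9a3. Col9a1 (ENSMUSG00000026147, chr1:24177610-24252684) was at 12.4, 32.5 and 34.0 CPM in WT mice and 156, 175 and 60.2 CPM in IL-21isoTg mice. IL-21isoTg mice 1 and 2 were far above the rest, and IL-21isoTg mouse 3 was nearer to the WT mice. The log2 fold change was 2.31 (SE 0.49; edgeR adjusted p 0.593), and it lay between 1.98 and 2.66 when each mouse was left out.

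The partner chains, named after their values were seen, did not share this difference. Col9a2 was at 56.8, 50.2 and 41.4 CPM in WT and 48.1, 57.7 and 24.5 CPM in IL-21isoTg mice, and Col9a3 at 62.9, 46.1 and 33.1 CPM against 36.4, 46.2 and 16.97 CPM. In both genes the groups overlapped, with log2 fold changes of -0.18 (SE 0.30) and -0.51 (SE 0.37). Counted per kb of exon within each library, which does not depend on the scaling between libraries, Col9a1 to Col9a2 was 0.133, 0.395 and 0.501 in WT and 1.98, 1.85 and 1.498 in IL-21isoTg mice. Col9a3 to Col9a2 was 0.556 to 0.889 over all 6 mice, with overlapping groups. These 2 ratios were added after the values were seen. Col9a1 was thus the scarcer chain in each WT mouse and the more abundant one in each IL-21isoTg mouse.

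Col2a1, Col10a1 and Col11a2, all known from cartilage, were high in 1 library. Col2a1, the chain of the main cartilage collagen, had 11, 732 and 13 counts in WT mice and 21, 27 and 2 counts in IL-21isoTg mice, and its log2 fold change of -4.01 became 0.40 without WT mouse 2. The same WT mouse had the 12 counts of Col10a1 and the highest Col11a2 level, at 13.9 CPM against 3.65 to 5.97 CPM in the other mice. Of 7 chondrocyte markers, 5 (Acan, Comp, Chad, Matn3 and Hapln1) were highest in the same library. Acan had 4, 312 and 1 counts in WT and 1, 6 and 1 counts in IL-21isoTg mice, and Comp had 4, 946 and 11 counts against 6, 15 and 15. Matn1 had counts in 1 IL-21isoTg library alone, and Sox9, which is not restricted to cartilage, was at 250, 380 and 427 CPM in WT and 240, 368 and 280 CPM in IL-21isoTg mice. Most of the summed level of the list was Sox9, and the sum was 257, 516 and 433 CPM in WT and 252, 374 and 296 CPM in IL-21isoTg mice. Col9a1 was not raised in WT mouse 2, which lay between the other WT mice. The part of cartilage in these levels was not tested. These genes were named after their values were seen.

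**Figure D3:**
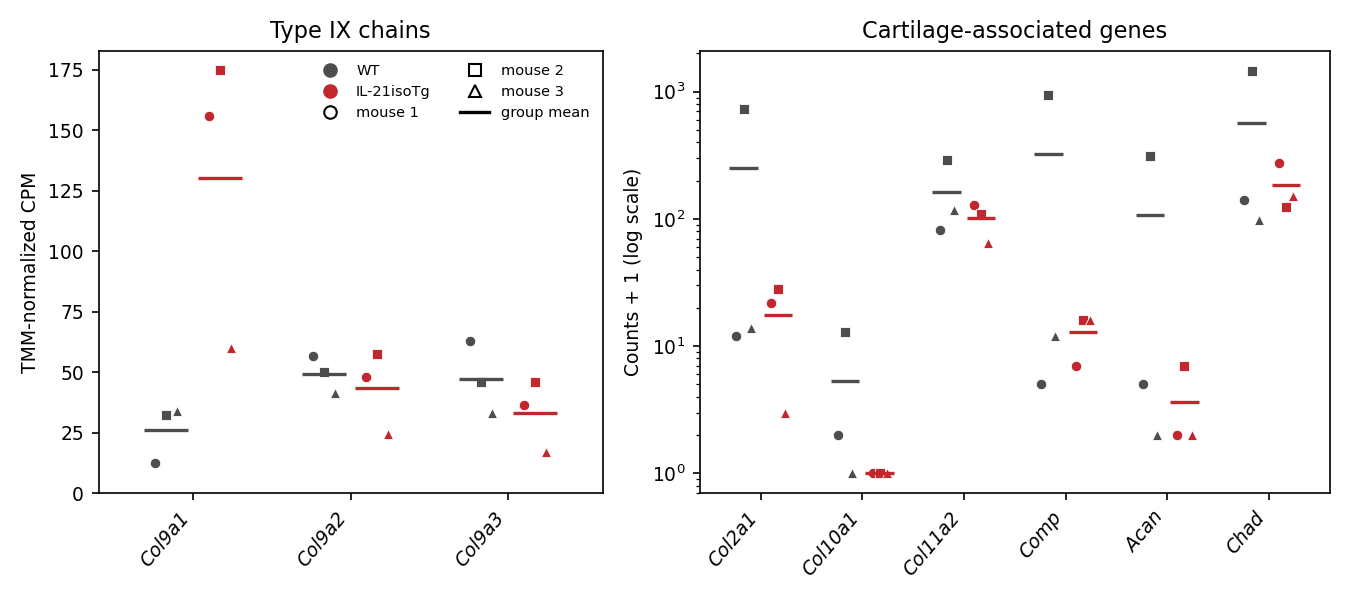
Left, TMM-normalized CPM of the 3 type IX collagen chains. Right, counts plus 1 on a log axis of cartilage-associated genes. Points are single mice, with a shape per mouse number within its group, and bars are arithmetic means of 3 mice. Col9a1 is higher in each IL-21isoTg mouse (60.2 to 175 CPM, against 12.4 to 34.0 CPM), whereas Col2a1, Comp and Acan are high in WT mouse 2 alone.

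Among the other FACITs, Col16a1 was the most abundant, at 220, 204 and 179 CPM in WT and 201, 271 and 136 CPM in IL-21isoTg mice. The groups overlapped, and its log2 fold change of 0.01 (SE 0.25, edgeR adjusted p 0.994) changed sign in 4 of the alternatives. Members from here to the end of the paragraph were named after their values were seen. Col12a1, which binds type I fibrils, was at 23.2, 27.4 and 28.5 CPM in WT and 31.2, 47.2 and 61.8 CPM in IL-21isoTg mice, so that the groups did not overlap (0.82, SE 0.25, edgeR adjusted p 0.809), whereas Col14a1, another fibril-binding FACIT, was at 116 to 215 CPM and 121 to 179 CPM (-0.11, SE 0.26). Col20a1 was at 5.50 to 16.3 CPM over the 6 mice. The 9 FACIT genes, of which 7 were tested, had a median log2 fold change of 0.01.

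The collagens that anchor epithelium differed little beside their spread, and those named in this and the next paragraph were also chosen after their values were seen. Col7a1, which forms anchoring fibrils, was at 186, 79.7 and 123 CPM in WT and 149, 95.2 and 221 CPM in IL-21isoTg mice. Col17a1, a transmembrane collagen of hemidesmosomes in basal cells, was at 119, 95.4 and 51.9 CPM against 126, 89.7 and 76.6 CPM. Their log2 fold changes were 0.26 (SE 0.38) and 0.14 (SE 0.32), and neither edgeR nor DESeq2 called either gene. The multiplexins of basement membrane zones were split, with Col15a1 at 50.5, 58.1 and 78.2 CPM against 113, 70.5 and 96.7 CPM (0.59, SE 0.23, edgeR adjusted p 0.809) and Col18a1 at 55.7 to 145 CPM against 91.7 to 97.7 CPM (0.04, SE 0.33).

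Type VIII collagen, a short-chain network collagen known from vessel walls, had the lowest log2 fold changes after Col2a1. Col8a1 was at 16.4, 91.4 and 74.2 CPM in WT mice and 19.0, 17.8 and 22.4 CPM in IL-21isoTg mice. WT mice 2 and 3 were high, and WT mouse 1 lay below all 3 IL-21isoTg mice (log2 fold change -1.62, SE 0.53, edgeR adjusted p 0.809). Without WT mouse 1 the fold change was -2.06, with an edgeR adjusted p of 0.0651, and DESeq2 then called it lower. Col8a2 was at 1.89, 7.50 and 4.0045 CPM against 1.58, 2.35 and 0.653 CPM (-1.50, SE 0.61, edgeR adjusted p 0.809), with overlapping groups. The remaining members, Col13a1, Col23a1, Col25a1, Col26a1 and Col28a1, were at most at 12.6 CPM in any mouse, and their groups overlapped.

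Ratios between chains of the same collagen were compared per kb of exon within each library. Col1a1 to Col1a2 was 1.83, 1.77 and 1.92 in WT and 2.24, 2.01 and 1.97 in IL-21isoTg mice. The groups did not overlap, although the gap between them was small. Such ratios scale with the annotated exons, which hold 6563 bases for Col1a1 and 12426 for Col1a2. The coding sequences of these genes are nearer in length, at 1453 and 1372 codons, so the ratio does not give the proportion of chains. The same holds for Col6a1 and Col6a2, with 4380 and 8326 bases but 1025 and 1034 codons. Col4a1 to Col4a2 was 1.22 to 1.53, Col6a1 to Col6a2 1.85 to 2.35, Col6a3 to Col6a1 0.272 to 0.481 and Col5a1 to Col5a2 0.809 to 1.43 over the 6 mice, all with overlapping groups. Between classes, Col1a1 to Col4a1, a ratio added after the values were seen, was 0.933, 2.25 and 2.20 in WT and 3.38, 2.35 and 2.69 in IL-21isoTg mice. The ratios between chains of types IV, V and VI thus overlapped between the genotypes, unlike Col9a1 to Col9a2 and, by a small gap, Col1a1 to Col1a2.

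**Figure D4:**
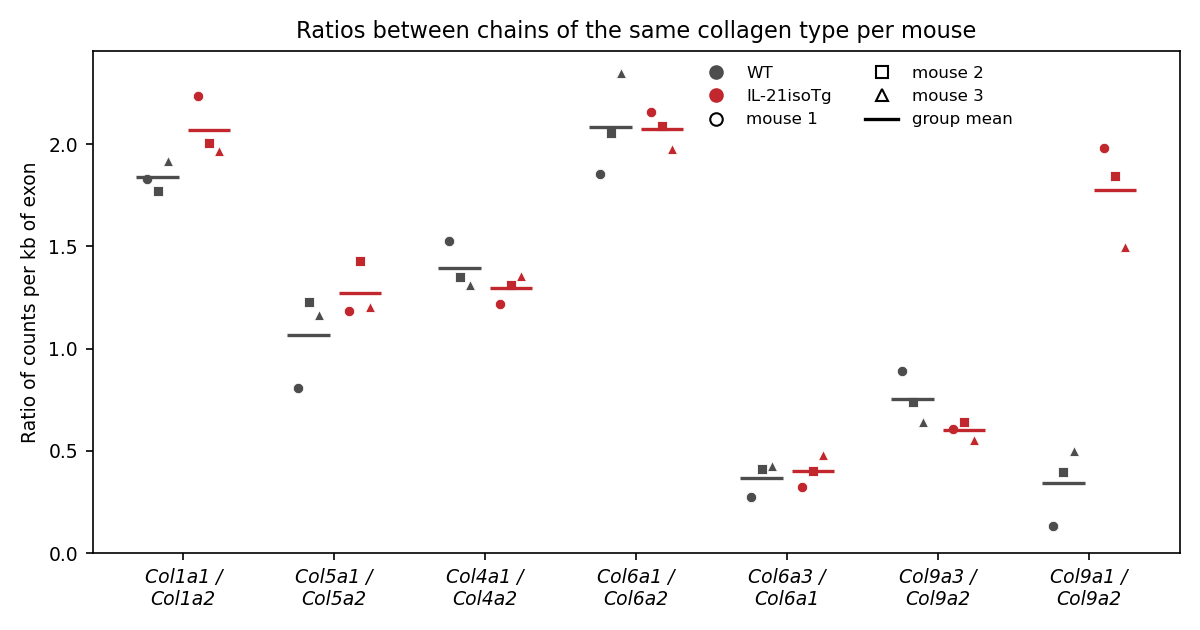
Ratio of counts per kb of exon between chains of the same collagen, with 1 point per mouse, a shape per mouse number within its group and a bar at the mean of 3 mice. The groups separate for Col9a1 to Col9a2 (0.133 to 0.501 in WT, 1.498 to 1.98 in IL-21isoTg mice) and by a small gap for Col1a1 to Col1a2, and overlap for the other 5 ratios.

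The genes that build, process and bind collagen were taken from a list of 70, of which 65 were tested. None passed an adjusted p of 0.05 with edgeR's quasi-likelihood test, and 9 were higher and 1 lower at an unadjusted p under 0.05, where 3.19% and 2.63% of all genes tested were. The fitted level was higher in 53 of the 65, against 47.9% of all genes tested, with a median log2 fold change of 0.30. The 17 tested genes of chain modification and folding had a median of 0.21, with P4hb, the shared subunit of prolyl 4-hydroxylase, at 680, 627 and 576 CPM in WT and 661, 721 and 969 CPM in IL-21isoTg mice. The cross-linking enzymes had a median of 0.64 over 7 genes. Among them Loxl1, a lysyl oxidase of elastic and collagen fibres, was at 20.1, 28.0 and 29.6 CPM in WT and 37.5, 51.5 and 44.7 CPM in IL-21isoTg mice (0.78, SE 0.20, edgeR adjusted p 0.782).

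Loxl2, which cross-links type IV collagen, was at 8.16, 12.1 and 12.1 CPM in WT and 19.2, 18.6 and 20.2 CPM in IL-21isoTg mice (0.85, SE 0.22, edgeR adjusted p 0.757). Neither Loxl1 nor Loxl2 had overlapping groups. Tgm2, a transglutaminase, was at 308 to 879 CPM and 569 to 1791 CPM, with overlap. Dcn, a proteoglycan that binds type I fibrils, went against the fibrillar genes, with 469, 912 and 832 CPM in WT and 684, 548 and 604 CPM in IL-21isoTg mice (-0.27, SE 0.28, edgeR adjusted p 0.872), and the groups overlapped. The median log2 fold change was 0.54 over 10 genes of secretion and propeptide removal, 0.46 over 5 basement membrane partners, 0.33 over 9 genes of collagen induction, 0.28 over 8 receptors and 0.27 over 9 proteoglycans.

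The summed level of the 11 fibrillar genes was 1586, 2674 and 2357 CPM in WT and 4406, 3920 and 3915 CPM in IL-21isoTg mice, which is 2205 ± 559 against 4080 ± 282 CPM (SD, n = 3) and 1.85 times as high. Type IV collagen summed to 833, 667 and 661 CPM against 920, 1014 and 800 CPM, a ratio of 1.26 with overlapping groups. The others summed to 1448, 1401 and 1350 CPM against 1829, 1890 and 1599 CPM, a ratio of 1.27 without overlap. With plain CPM of the total count the log2 ratio was 0.60 for the fibrillar genes, against 0.89 with TMM. It was 0.12 for type IV and 0.10 for the others, against 0.34 for each with TMM. Within the collagen counts, which need no scaling between libraries, fibrillar genes took 41.0%, 56.4% and 53.96% in WT and 61.6%, 57.4% and 62.0% in IL-21isoTg mice. The fibrillar share was higher in every IL-21isoTg mouse, with WT mouse 2 and IL-21isoTg mouse 2 the nearest pair. Type IV took 12.7 to 21.6% over all mice with overlap, and the share of the others was lower in each IL-21isoTg mouse (25.3 to 27.7%, against 29.5 to 37.4%). The shares are parts of the same total, so a higher fibrillar share comes with a lower share elsewhere. With TMM, the summed level of the others was itself higher in each IL-21isoTg mouse, as given above.

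In a bulk preparation, a change in the number of cells of a type cannot be told apart from a change in their RNA per cell. The 9 fibroblast markers, none of them a collagen, had a median log2 fold change of 0.57, close to that of the fibrillar genes. Of the 9, 8 were above 0, against 47.9% of all genes tested. Their summed level was 666 to 1319 CPM in WT and 1001 to 1183 CPM in IL-21isoTg mice, with Dcn the most abundant, and without Dcn it was 197, 406 and 350 CPM against 499, 468 and 397 CPM. The ratio of the fibrillar sum to the sum of all 9 markers was 1.99 to 2.38 in WT and 3.72 to 3.91 in IL-21isoTg mice. Without Dcn it was 8.05, 6.58 and 6.73 against 8.82, 8.38 and 9.86, so the size of the separation depended on this 1 marker.

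The 8 endothelial markers all had log2 fold changes above 0, where 47.9% of all genes tested did, with a median of 0.94. Their summed levels were 133, 283 and 113 CPM in WT and 428, 362 and 171 CPM in IL-21isoTg mice. The ratio of the fibrillar sum to this sum was 9.43 to 22.9 over all 6 mice, with overlapping groups. Basal markers summed to 1843 to 2226 CPM and 2075 to 3480 CPM, with Krt14 at 223 to 390 and 326 to 532 CPM, and type IV collagen stood to them at 0.2998 to 0.420 in WT and 0.264 to 0.386 in IL-21isoTg mice. Pericyte and vascular smooth muscle markers summed to 201 to 460 CPM and 227 to 407 CPM, with Rgs5 at 26.1 to 89.5 and 36.3 to 82.0 CPM, and the fibrillar sum stood to them at 5.81 to 7.90 against 9.64 to 17.3. Leukocyte markers summed to 29.0 to 59.1 CPM against 39.0 to 48.4 CPM, Schwann cell markers to 341 to 353 CPM against 348 to 428 CPM, and adipocyte markers to 0.902 to 2.98 CPM against 1.40 to 36.5 CPM. Of the markers tested, 8 of 9 basal and 7 of 8 pericyte or vascular smooth muscle genes had log2 fold changes above 0. So did 4 of 5 Schwann cell, 2 of 2 adipocyte and 10 of 10 salivary gland genes. The number was 6 of 10 for luminal, 3 of 6 for leukocyte and 0 of 3 for chondrocyte markers. The part of these cells in the collagen levels was not tested.

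**Figure D5:**
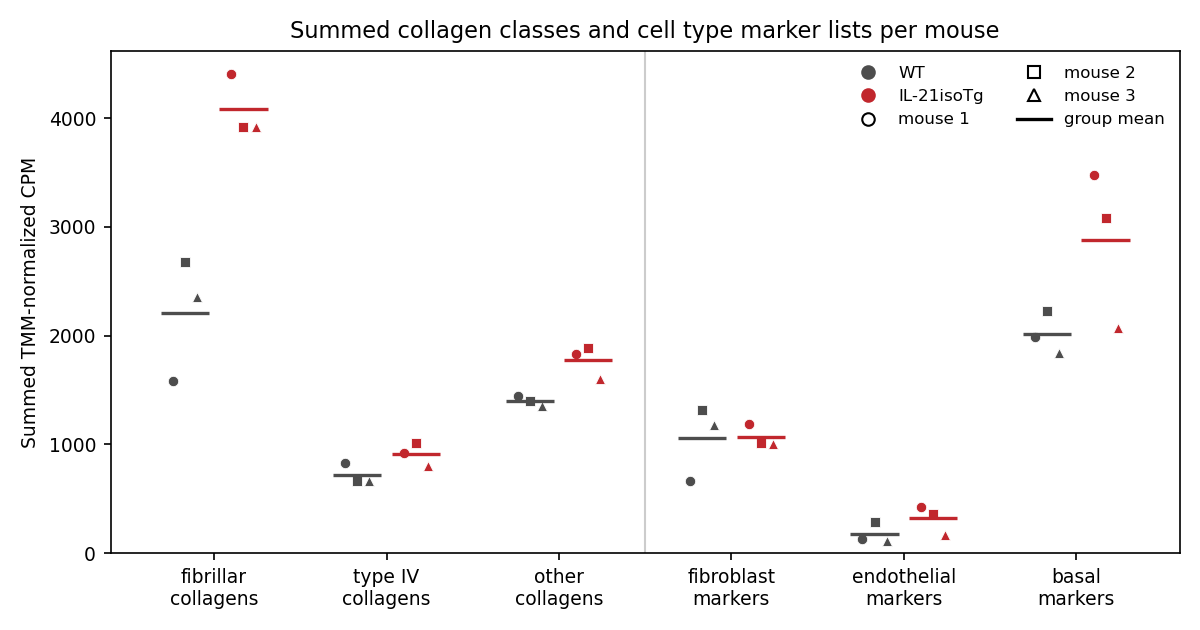
Summed TMM-normalized CPM per mouse of 3 collagen classes (left) and of marker lists of fibroblasts, endothelium and basal cells (right), with a shape per mouse number within its group and bars at the mean of 3 mice. The fibrillar sums lie at 1586 to 2674 CPM in WT and 3915 to 4406 CPM in IL-21isoTg mice, and the fibroblast and endothelial sums of the groups overlap.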

How the data were processed

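Poly(A)-selected, directional libraries of 6 mice were sequenced, and the authors deposited counts of reads per gene and mouse without normalization. The submitters' processing notes name FastQC 0.11.7, Trimmomatic 0.38, HISAT2 2.1.0, SAMtools 1.9, featureCounts 1.6.3, DESeq2 1.24.0 and the mm10 build. Whether reads were counted by strand is not given in the sources used here. Other deposited tables, which hold the counts divided by size factors and the authors' own fold changes and p-values, were not used.

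Genes were filtered with filterByExpr (minimum count 10, minimum total 15), scaled by TMM and compared with edgeR 4.0.16 (quasi-likelihood, robust) in R 4.3.3, with genotype as the only term and Benjamini-Hochberg adjustment over 17165 genes. DESeq2 1.42.0 and limma 3.58.1 (voom) were alternatives, as were other scalings and filters, a block for the replicate number, and fits without each mouse. The edgeR fit was tested on simulated data. Levels are TMM CPM, and per kb of the union of annotated exons. Limits for a count of 0 are those of 3 counts. Runs of Gly-X-Y repeats were read from glycine codons in the coding sequence, breaks being any other codon. Figures were drawn with matplotlib 3.10.9 in Python 3.11.15.

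In each class the text names the 4 most abundant members and the 3 with the smallest p, any member called by edgeR or DESeq2, and the chains of the ratios, and of the partner genes the 3 with the smallest p and the 3 most abundant. 1 partner gene that this rule takes is not reported here. Other names were chosen after their values were seen. The members and lists were chosen with earlier results of these data known. Same-numbered WT and IL-21isoTg mice did not deviate together (r between -0.22 and 0.07), so the numbers were not used as pairs.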

Additional observations from a re-analysis of the deposited data

How the results depend on the processing

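Of 176 recomputed main results, 158 were counts that stayed alike, or sums and ratios that moved by less than the spread. Many of the 158 were numbers of called genes that stayed at 0. A ratio that changed sign within the spread was also among them. The log2 ratio between genotypes of Col6a3 to Col6a1, for example, was 0.12 and became -0.05 without WT mouse 1. The number of genes past an adjusted p of 0.05 was 0 higher and 0 lower with edgeR, 14 higher without a filter, and 72 higher and 8 lower with DESeq2, which called 5 collagen genes higher. Without each mouse in turn, edgeR called 0 to 6 genes higher, 0 lower and 0 collagen genes. For DESeq2, leaving out each mouse was chosen after seeing the data and gave 0 to 7 collagen genes higher, where 0.142 to 0.921% of all genes were, and 0 to 1 lower, where 0.0113 to 0.37% were. The non-overlap counts were also examined under alternatives chosen after seeing the data. With plain CPM they were 2 higher and 0 lower, where 1.13% and 9.19% of all genes were. Without each mouse they were 12 to 16 higher, against 8.26 to 12.6% of all genes, and 1 to 5 lower, against 9.39 to 15.1%. The 5 lower, of 41 tested, came without WT mouse 1, where 14.4% of all genes were lower. With plain CPM the log2 ratio of the summed fibrillar level was 0.60 (0.89 with TMM). That of type IV was 0.12 (0.34 with TMM) and that of the others 0.10 (0.34 with TMM). Of 210 recomputed values of the single genes taken by the naming rule, 4 reversed, all of Col16a1. They were -0.054 with limma-voom and -0.038 with a block for the replicate number. Without each mouse Col16a1 was at -0.25 to 0.24, below 0 without WT mouse 3 or IL-21isoTg mouse 2. Members outside the rule are not among the 210, and several of them also changed sign in an alternative. Without WT mouse 2, for example, Col2a1 went from -4.01 to 0.40 and Col11a2 from -0.58 to 0.19. The block changed no call, and the cause of the other changes was not tested. Of the 41 members tested, 4 had under 10 counts in at least 1 library (Col2a1, Col8a2, Col24a1 and Col26a1), and their fold changes rest on few reads there.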
